A study of Mus musculus with 26 samples.

Results

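The centrosome and centriole genes followed here were 45 protein-coding genes, given as a list of gene symbols and matched by symbol in each count table, in capitals for human. All 45 were found among the 40481 genes of the mouse spheroid and crypt tables and among the 55093 genes of the human Caco-2 table. All 45 had enough reads to be tested in each of the 3 tables, so no member was lost to the filter on low counts. They fall into 6 groups by role: 12 genes of centriole duplication and growth, 6 of the centriole cap, wall and lumen, 5 of the pericentriolar matrix and satellites, 7 of the gamma-tubulin ring complex, 8 of augmin, and 7 of the linker and appendages.

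The study's title speaks of centrosomes in intestinal stem cells and Crohn's disease. It compared samples with and without loss of Fgfr1op, also called Cep43 or FOP, which encodes a protein of the centriole and of centriolar satellites that takes part in anchoring microtubules. RNA was sequenced in 26 libraries. Small intestinal spheroids, which are epithelial cultures in Matrigel, were Fgfr1op KO (4 libraries) or WT (4 libraries). They were collected on day 3 after hydroxytamoxifen, given at 250 nM in medium with 50% L-WRN supernatant. Crypt-enriched small intestinal cells came from 6 Fgfr1op KO and 6 WT mice, of which 3 per genotype were taken on day 6 and 3 on day 9 after tamoxifen. Caco-2, an established human line from a colon carcinoma, carried a doxycycline-inducible hairpin against FGFR1OP (shFgfr1op, 3 libraries) or a non-targeting scramble hairpin (3 libraries) and was collected on day 3 after doxycycline.

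The labels give WT spheroids and WT mice the same days after the drug as KO. They do not name the Cre driver or the cells in which it acts. The crypt columns show the genotype, a running number from 1 to 6 and a second, longer number, but not the day, so days 6 and 9 were analysed together. The second number falls into 2 runs, the first with KO libraries 1 to 3 and WT libraries 1 and 2, the second with KO libraries 4 to 6 and WT libraries 3 to 6. Nothing in the labels says what the runs stand for. With 2 WT libraries in the first run and 4 in the second, they do not match the days, which had 3 mice per genotype each. Running numbers 1 to 3 and 4 to 6 hold 3 libraries per genotype each, but the columns do not link them to a day. Only 1 hairpin was used in Caco-2, and nothing says that its 3 libraries came from separate cultures, so those p-values measure the spread between these libraries.

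A centrosome is a pair of centrioles in a matrix of proteins that nucleates microtubules. One new centriole grows beside each parent once per cell cycle: the kinase Plk4 starts it, Stil and Sass6 build the cartwheel, and Cenpj and Cep120 lengthen the wall, while Ccp110 and Cep97 cap the far end. Gamma-tubulin rings nucleate microtubules from the matrix, augmin adds branches inside the spindle, and the kinase Nek2 dissolves the linker that Cep250 and Crocc form between the centrioles before mitosis. In the gut, cycling crypt cells carry out this duplication, and differentiated enterocytes have left the cycle.

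Total counts were 51459939 to 63981065 per library in KO spheroids and 44152608 to 67630241 in WT spheroids. They were 48068740 to 88869286 in KO crypts and 49536700 to 103352863 in WT crypts, and 37281821 to 43876634 in shFgfr1op and 37989227 to 50965004 in scramble Caco-2 cells. Levels are CPM, the counts of a gene scaled to equal library totals after TMM normalization. Xist, whose counts differ by sex, had 18489 counts in WT spheroid library 1 and at most 6 in every other spheroid library. In crypts it had 5 counts in KO library 6, 12 in WT library 6 and 3141 to 10511 in the rest. The part of sex in the members' values was not tested. Crypt KO libraries 4, 5 and 6 stood apart from the other 9 crypt libraries. Their scores on the first principal component were 101.7 to 124.3, against -64.4 to 5.16 in the rest, and this component held 56.0% of the variance. A list of 12 enterocyte markers summed to 3092 to 7019 CPM in KO libraries 4 to 6, to 16486 to 31551 CPM in KO libraries 1 to 3 and to 14688 to 36803 CPM in WT crypts. A list of 10 epithelial markers summed to at least 9117 CPM in every library of the 3 tables. In crypts it summed to 15535 to 26261 CPM in KO and 9766 to 17341 CPM in WT, while 15 immune markers summed to 160 to 334 CPM in KO crypts and 299 to 530 CPM in WT crypts. The immune markers did not move as 1: 9 had positive and 6 negative log2 fold changes, with a median of 0.34. In edgeR 1 was called higher and 1 lower in KO, or 13.3%, against 24.5% of all genes. In these bulk samples fewer cells of a type and less RNA per cell cannot be told apart.

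The targeted gene was lower in all 3 comparisons. In spheroids Fgfr1op was at 17.5, 19.8, 15.0 and 17.2 CPM in KO libraries 1 to 4, against 23.5, 23.3, 24.4 and 21.7 CPM in WT libraries. The groups did not overlap, and the log2 fold change was -0.42 ± 0.095 (SE), which missed the threshold in edgeR's quasi-likelihood test (Benjamini-Hochberg adjusted p = 0.117) while an exact two-sided permutation test gave p = 0.0286, the smallest that 4 against 4 allows. In crypts it had a minimum of 11.7, a median of 23.0 and a maximum of 25.9 CPM in KO, against 25.2, 34.6 and 39.0 CPM in WT. The log2 fold change was -0.65 ± 0.192 (edgeR adjusted p = 0.0261), KO library 1 was the lowest, and the highest KO library lay just above the 2 lowest WT libraries. The call was lost without WT library 2 or 6 (edgeR adjusted p = 0.0528 and 0.0543). In Caco-2 FGFR1OP was at 6.43, 6.78 and 7.26 CPM with shFgfr1op, against 15.8, 15.9 and 15.5 CPM with scramble. Its log2 fold change was -1.20 ± 0.094 (edgeR adjusted p = 1.65e-14), and 56.5% of the scramble level was missing. The exact permutation test gave p = 0.00649 in crypts and p = 0.1 in Caco-2, the smallest that 3 against 3 allows. The mean level in KO was lower by 25.1% in spheroids and by 36.1% in crypts, so a large share of the transcript was still counted in both.

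In crypts 6 of the 45 members passed the test, 5 higher and 1 lower in KO. Nek2, Plk4, Tubg1, Haus6 and Ninl rose, and Cep97 fell. Over all 16413 genes tested in crypts 24.5% were called (14% higher and 10.5% lower), so the members' 6 of 45 is a smaller share than that of all genes. The median log2 fold change of the members was 0.16, against 0.05 for all genes tested, and 33 of the 45 estimates were positive. The median of the members in each library, relative to the WT mean, overlapped between genotypes. It lay between -0.05 and 0.34 in KO and between -0.31 and 0.22 in WT. Groups did not overlap for 3 members, all higher in KO, against 4.9% of all genes higher and 5.71% lower without overlap.

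The promoters of the genes called in crypts are shown as a description, since cell cycle genes often share short elements near their start. The part of these elements in the changes was not tested. Windows from 250 bases before to 50 bases after the RefSeq start (build GRCm38.p6) were present for 38 of the 45 members, and were searched on both strands for TTTGAA (the CHR element), CCAAT (the NF-Y box) and GCGGGAA (an E2F-type site). The first 280 bases follow, 5′ to 3′ on the strand of the gene, with capitals for matches, for the 4 called genes whose window held a match. Tubg1 had no promoter entry. The window of Ninl, chr2:151009369-151009648 on the minus strand, held no match. It lies inside the gene as annotated in GENCODE M21, whose 5′ end is at 151039382.
Nek2, chr1:191821223-191821502, plus strand: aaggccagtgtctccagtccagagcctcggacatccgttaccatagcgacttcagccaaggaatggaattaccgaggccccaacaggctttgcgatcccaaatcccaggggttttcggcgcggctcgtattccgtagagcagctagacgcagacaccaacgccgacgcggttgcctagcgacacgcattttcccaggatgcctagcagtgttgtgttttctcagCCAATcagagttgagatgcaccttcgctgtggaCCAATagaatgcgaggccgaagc
Plk4, chr3:40799701-40799980, plus strand: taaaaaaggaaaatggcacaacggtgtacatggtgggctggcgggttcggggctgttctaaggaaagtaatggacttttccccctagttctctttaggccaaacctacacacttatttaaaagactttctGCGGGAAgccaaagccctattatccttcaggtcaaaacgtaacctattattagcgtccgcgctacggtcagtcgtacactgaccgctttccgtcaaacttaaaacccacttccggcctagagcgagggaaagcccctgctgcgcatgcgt
Haus6, chr4:86612026-86612305, minus strand: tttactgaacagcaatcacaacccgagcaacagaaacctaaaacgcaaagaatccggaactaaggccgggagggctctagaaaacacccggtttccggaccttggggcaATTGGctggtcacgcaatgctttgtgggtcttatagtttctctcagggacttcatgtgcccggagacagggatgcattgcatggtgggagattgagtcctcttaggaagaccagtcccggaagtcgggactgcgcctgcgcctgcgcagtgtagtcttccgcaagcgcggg
Cep97, chr16:55934819-55935098, minus strand: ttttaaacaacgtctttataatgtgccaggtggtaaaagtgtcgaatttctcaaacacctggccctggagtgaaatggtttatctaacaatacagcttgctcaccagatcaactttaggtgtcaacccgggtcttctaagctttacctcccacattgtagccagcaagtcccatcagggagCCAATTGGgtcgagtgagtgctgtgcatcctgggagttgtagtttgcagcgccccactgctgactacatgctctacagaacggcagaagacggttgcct

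Nek2 held CCAAT 26 bases before and 7 bases after the RefSeq start. GENCODE M21 starts Nek2 earlier, at chr1:191821444, so both matches lie inside the gene as annotated there. Haus6 held 1 CCAAT box on the opposite strand, written ATTGG, 141 bases before the start. Cep97, which fell, held CCAAT and ATTGG overlapping each other, starting 69 and 66 bases before the start. Plk4 held GCGGGAA 120 bases before the start and no CCAAT. Of the 38 members, 55.3% held CCAAT in at least 1 window, against 41.1% of all 27025 genes with windows, whether expressed here or not. GCGGGAA was held by 23.7%, against 5.29%, and TTTGAA by 15.8%, against 20.2%. These are matches of letters in windows near the start, with no test.

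Nek2, the kinase of linker dissolution, had a minimum of 7.44, a median of 10.5 and a maximum of 21.0 CPM in KO crypts, against 3.84, 5.61 and 6.99 CPM in WT crypts. Every KO library lay above every WT library. The log2 fold change was 1.13 ± 0.245 (edgeR adjusted p = 0.00647, n = 6 each), or 2.19-fold. Plk4, which starts centriole duplication, ranged from 7.45 through a median of 8.33 to 13.4 CPM in KO crypts, against 3.73, 5.37 and 7.20 CPM in WT crypts. Here too the groups did not overlap, with a log2 fold change of 0.73 ± 0.194 (edgeR adjusted p = 0.016). KO library 1 was the highest of all 12 for both kinases and the lowest of all 12 for Fgfr1op. Without it the log2 fold change was 0.89 for Nek2 and 0.59 for Plk4, and both were still called.

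Haus6, a subunit of augmin, had a minimum of 12.5, a median of 16.1 and a maximum of 17.4 CPM in KO crypts, against 6.41, 10.2 and 12.4 CPM in WT crypts. The groups did not overlap, though the lowest KO and the highest WT library were close, and the log2 fold change was 0.68 ± 0.195 (edgeR adjusted p = 0.022). Its 7 augmin partners lay between -0.06 and 0.32 and none passed. Tubg1, gamma-tubulin itself, had a minimum of 45.5, a median of 64.2 and a maximum of 75.4 CPM in KO crypts, against 34.7, 44.7 and 49.9 CPM in WT crypts. KO library 1 fell within the WT range and the other 5 KO libraries lay above it, and the log2 fold change was 0.53 ± 0.142 (edgeR adjusted p = 0.0168). Its near-identical copy Tubg2, which is no member and was looked at after the values of Tubg1 were seen, was also higher at a mean of 1.20 CPM in KO crypts (SD 0.154) and of 0.650 CPM in WT crypts (SD 0.143), so reads shared by the copies leave the split between them uncertain. None of the 6 other ring complex members passed, with log2 fold changes from -0.11 for Tubgcp5 to 0.41 for Tubgcp6.

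Ninl, the ninein-like protein, and Cep97, the partner of Ccp110 at the cap, had their values in 2 levels within KO. Ninl was at 5.74, 11.4 and 8.50 CPM in KO libraries 4 to 6 and at 1.75, 3.40 and 2.22 CPM in KO libraries 1 to 3, against a WT range of 0.583 to 2.94 CPM. Cep97 was at 2.26, 2.66 and 2.40 CPM in KO libraries 4 to 6 and at 3.60, 4.44 and 3.49 CPM in KO libraries 1 to 3, against a WT range of 3.54 to 6.40 CPM. For both genes KO libraries 4 to 6 lay outside the WT range, and KO libraries 1 to 3 overlapped it or lay next to it. Over all 6 KO libraries the log2 fold change was 1.60 ± 0.479 for Ninl (edgeR adjusted p = 0.0279) and -0.67 ± 0.214 for Cep97 (edgeR adjusted p = 0.034).

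**Figure D1:**
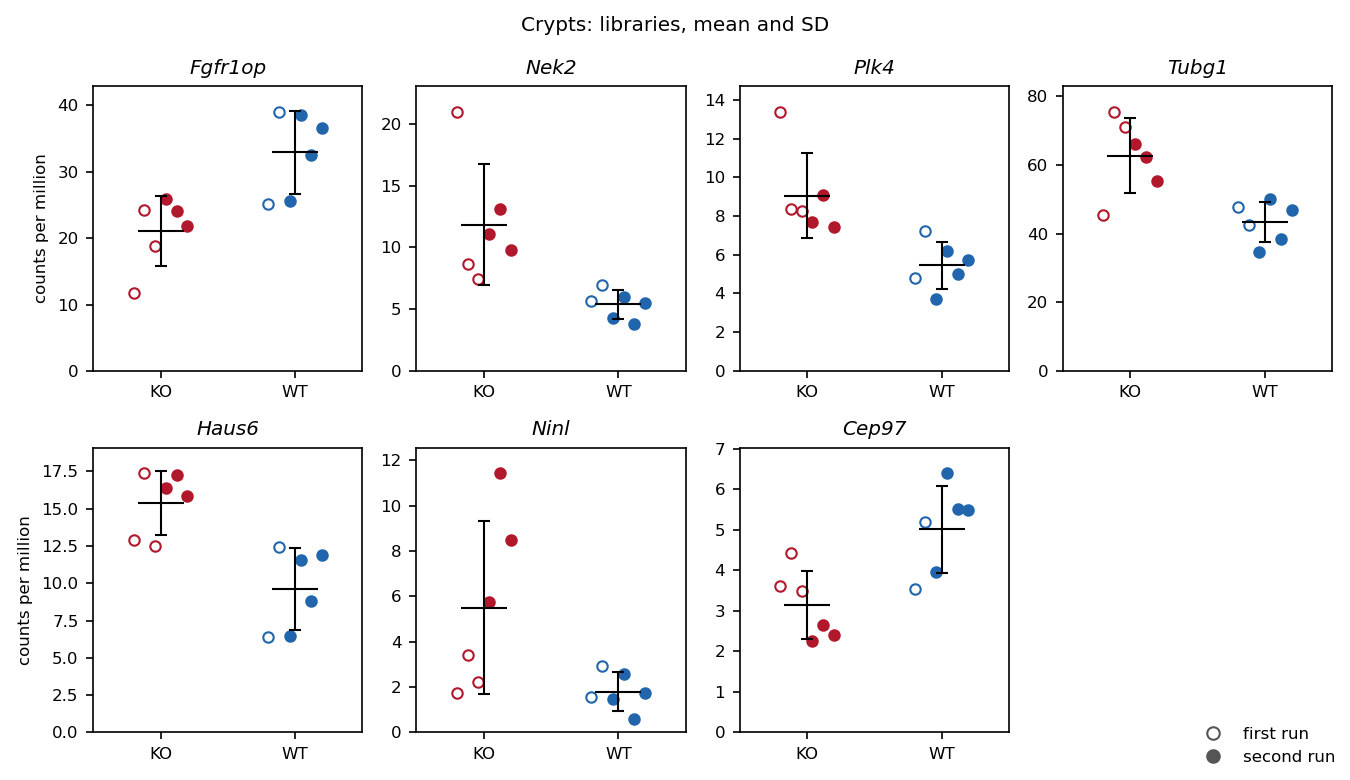
CPM (y axis, linear from 0) of Fgfr1op and the 6 members called in crypts, for KO (left) and WT (right) libraries. Points are libraries, open for the first run of the second header number (KO 1 to 3, WT 1 and 2) and filled for the second (KO 4 to 6, WT 3 to 6), and the black mark is the mean with its SD (n = 6 each); Nek2, Plk4 and Haus6 do not overlap between genotypes, and the filled KO points of Ninl and Cep97 lie apart from the open ones.

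The 6 calls were fitted again within the 2 runs of the second header number, a division added after the data were seen. In the first run (3 KO and 2 WT libraries) no member was called by edgeR and none had an unadjusted p below 0.05, beside 0.156% of all genes called. In the second run (3 KO and 4 WT libraries) 9 members were called, 8 higher and 1 lower, beside 41.1% of all genes. Nek2 was at 1.16 in the second run and 0.96 in the first, Plk4 at 0.61 and 0.73, Tubg1 at 0.49 and 0.50, and Haus6 at 0.73 and 0.59. Ninl was at 2.38 in the second run and 0.12 in the first, and Cep97 at -1.17 and -0.19. The other 3 calls of the second run were Akap9, a scaffold of centrosome and Golgi, at 0.59 (-0.02 in the first run), the satellite gene Cep72 at 0.75 (0.12) and Cep120 at 0.45 (0.05). In a test of the difference of the KO effects, second run minus first, edgeR called 1 member, Ninl at 2.29 ± 0.63 (adjusted p = 0.0378), beside 6.64% of all genes, and Cep97 at -0.95 ± 0.37 did not pass (edgeR adjusted p = 0.162). With the run as a term in the fit of all 12 libraries the same 6 members were called, beside 31.6% of all genes. Running numbers 1 to 3 and 4 to 6, the first of which mixes the runs, gave 0 and 9 member calls, beside 0.677% and 41.3% of all genes. The low enterocyte marker sums of KO libraries 4 to 6 moved with Ninl and Cep97, and their part in the result was not tested.

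Among the members that did not pass over all 12 crypt libraries, the matrix gene Pcnt came nearest, with a median of 15.7 CPM in KO crypts and of 11.4 CPM in WT crypts (log2 fold change 0.48 ± 0.201, edgeR adjusted p = 0.0963). All 5 matrix and satellite genes had positive estimates, from 0.12 for Cep131, which was close to 0 with at most 0.526 CPM in KO crypts and 0.278 CPM in WT crypts, to 0.48 for Cep72 and Pcnt, and none passed. Of the 12 duplication genes only Plk4 passed, and its cartwheel partners Stil and Sass6 were at 0.31 and -0.04. Ccp110, which pairs with Cep97 at the cap, was at -0.11 ± 0.292.

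Of 49 further centrosome genes, a list written with earlier results of these data known, 9 rose and 0 fell in edgeR in crypts, where 17 had an unadjusted p below 0.05. These calls are 18.4% of the list, against 24.5% of all genes. The 3 of smallest p were Plk2, a stress-responsive kinase that also acts on centrioles, at a mean of 22.4 CPM in KO crypts (SD 15.8) and of 2.17 CPM in WT crypts (SD 0.656, log2 fold change 3.36), Cep83 of the distal appendages at 0.75, and Odf2l at 0.59. Of 24 proliferation genes 5 rose and 1 fell, which is 25% of the list and close to that background, with summed levels of 2009 to 2973 CPM in KO and 1425 to 2635 CPM in WT, which overlap. Its part in the rise of Nek2 and Plk4 was not tested. Of 8 mesenchymal and endothelial markers tested none was called in edgeR, and none had an unadjusted p below 0.05. Leaving out WT library 5 left 2 member calls, Nek2 and Plk4, and leaving out KO library 4, 5 or 6 left 4, without Ninl and Cep97; Ninl also lost its call without WT library 1, 3 or 6, Cep97 without WT library 2, 4 or 6, and Haus6 without WT library 3.

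In spheroids no member passed the test (0 of 45, edgeR), against 0.232% of the 15915 genes tested (0.189% higher and 0.044% lower), and 4 members had an unadjusted p below 0.05. The median log2 fold change was 0.04, against -0.002 for all genes tested. The 4 of smallest p were the duplication genes Cep120 and Cep85, the matrix gene Pcnt and the linker gene Cep68.

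Cep120, which acts in centriole elongation, was at 31.0, 29.7, 25.8 and 29.0 CPM in KO spheroids, against 19.4, 24.4, 23.8 and 22.7 CPM in WT spheroids. The lowest WT value was that of library 1, the spheroid library with high Xist counts. The groups did not overlap, and the log2 fold change was 0.35 ± 0.092 (95% interval 0.15 to 0.56, edgeR adjusted p = 0.142). DESeq2 called it (adjusted p = 0.0227; 0.0227 to 0.314 over the 14 alternatives), beside 581 called genes in all, against 37 in edgeR.
Cep85, a partner of Stil, was at 30.8, 23.1, 27.9 and 28.1 CPM in KO spheroids, against 37.0, 33.9, 31.8 and 31.0 CPM in WT spheroids. It did not overlap, narrowly, and was at -0.28 ± 0.097 (edgeR adjusted p = 0.23). The highest WT value of Cep85 was that of library 1, with high Xist counts. Cep68 was at 26.9, 27.8, 28.8 and 29.5 CPM in KO spheroids, against 29.7, 31.0, 31.9 and 32.8 CPM in WT spheroids (-0.15 ± 0.066, edgeR adjusted p = 0.334). Every KO value lay below every WT value, by a narrow gap. The satellite gene Cep131 did not overlap either, at -0.11, which makes 1 member higher and 3 lower without overlap, against 8.56% of all genes (4.55% higher and 4.02% lower).

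Pcnt, the matrix scaffold, was at 51.5, 60.9, 55.1 and 71.0 CPM in KO spheroids, against 54.0, 50.1, 51.4 and 46.2 CPM in WT spheroids. KO library 1 lay inside the WT range, and the log2 fold change was 0.24 ± 0.099 (edgeR adjusted p = 0.303). The kinases that rose in crypts were close to level in spheroids: Nek2 averaged 86.0 ± 11.5 CPM in KO spheroids and 86.1 ± 4.00 CPM in WT spheroids (SD, n = 4 each), and Plk4 averaged 36.1 ± 1.87 CPM in KO spheroids and 34.5 ± 2.25 CPM in WT spheroids. The 95% interval of the log2 fold change was -0.20 to 0.20 for Nek2 and -0.10 to 0.22 for Plk4. All 7 ring complex estimates were positive but none exceeded 0.14, and the 8 augmin estimates lay between -0.13 and 0.12. Of 49 further centrosome genes and of 24 proliferation genes none was called in spheroids, with 7 and 1 at an unadjusted p below 0.05. The 10 epithelial markers summed to 15754 to 18546 CPM in KO spheroids and 13611 to 15534 CPM in WT spheroids, with none called and 4 at an unadjusted p below 0.05, and their part in the members' values was not tested.

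**Figure D2:**
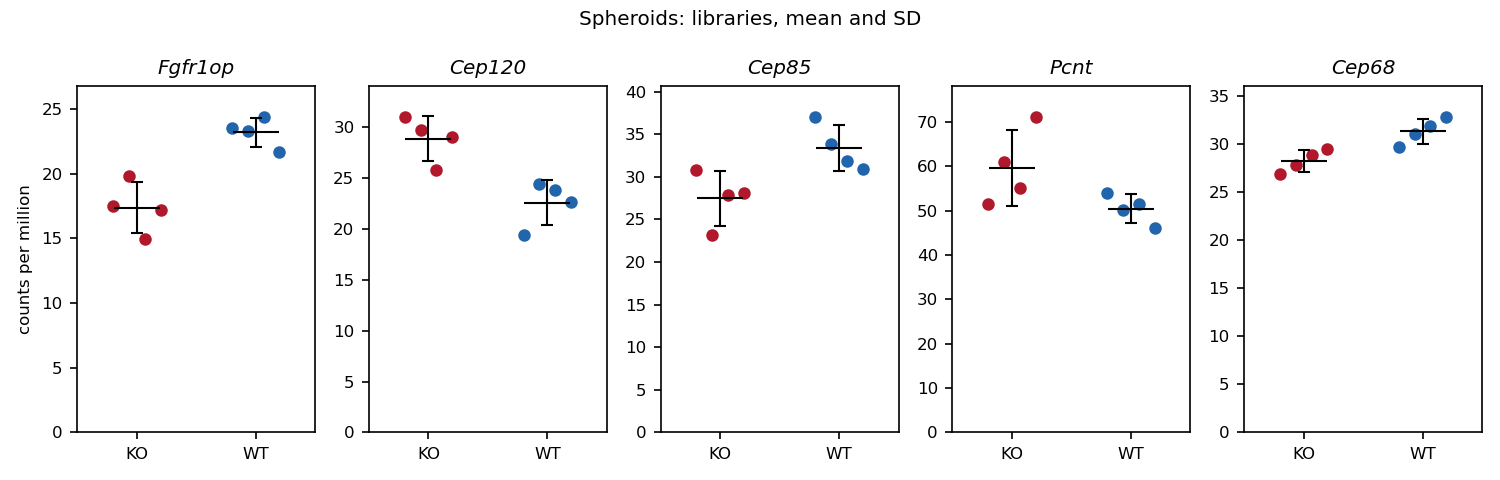
CPM (y axis, linear from 0) of Fgfr1op and the 4 members of smallest p in spheroids, for KO (left) and WT (right). Points are libraries and the black mark is the mean with its SD (n = 4 each); Cep120, Cep85 and Cep68 do not overlap between genotypes and Pcnt does.

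Whether the KO effect differed between spheroids and crypts was tested directly as the KO effect in spheroids minus that in crypts. No member was called in edgeR (0 of 45, with 4 at an unadjusted p below 0.05), against 2.86% of the 18485 genes tested (1.1% higher and 1.76% lower). Nek2 came nearest, at -1.09 ± 0.309 (edgeR adjusted p = 0.0587; 0.00206 to 0.118 over the alternatives), followed by Plk4 at -0.62, Cep97 at 0.68 and Ninl at -1.44. limma voom with sample quality weights called 4 members, of which 1 was higher and 3 lower, beside 4723 genes in all, against 528 in edgeR. Without crypt KO library 1, 2 or 3 or crypt WT library 2, edgeR called Nek2 alone.

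In Caco-2 13 of the 45 members passed the test, 10 higher and 3 lower with shFgfr1op, beside 31.9% of the 18905 genes tested (15.7% higher and 16.2% lower). The median log2 fold change was 0.02, against -0.005 for all genes tested. Sizes were small: the largest estimate among the called members was 0.45, or 1.37-fold. Of the 12 duplication genes 4 rose and 0 fell, a share close to the 31.9% of all genes, and the first 3 members by p were among them. The other groups held calls too. They were 2 of 6 in the cap, wall and lumen, 1 of 5 in the matrix and satellites and 1 of 7 in the ring complex. Augmin had 2 of 8, and the linker and appendages had 3 of 7.

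CEP57, a scaffold around the centriole, was at 107, 108 and 104 CPM with shFgfr1op, against 79.9, 81.0 and 77.2 CPM with scramble. The groups lay far apart, with a log2 fold change of 0.42 ± 0.039 (edgeR adjusted p = 3.7e-12). CEP120 was at 35.6, 35.4 and 35.2 CPM, against 28.4, 27.4 and 27.7 CPM with scramble, a log2 fold change of 0.35 ± 0.058 (edgeR adjusted p = 3.31e-06). CEP135, a cartwheel and wall protein, was at 13.4, 14.1 and 12.2 CPM, against 10.5, 8.43 and 10.1 CPM with scramble. It did not overlap either and was at 0.45 ± 0.097 (edgeR adjusted p = 0.000208). CEP63, the partner of CEP152 at the parent centriole, was at 21.8, 22.5 and 22.7 CPM, against 19.1, 20.0 and 17.1 CPM with scramble, a difference of 0.25 ± 0.072 (edgeR adjusted p = 0.00454) that was not called without scramble library 3. The core of the pathway was not among the calls: PLK4 was at -0.01, SASS6 at 0.06, STIL at -0.09 and CEP152 at -0.18, and none of them passed.

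CCP110, which caps the centriole, was at 17.5, 16.6 and 18.8 CPM with shFgfr1op, against 13.1, 13.2 and 15.6 CPM with scramble. Every shFgfr1op library was above every scramble library, and the log2 fold change was 0.33 ± 0.083 (edgeR adjusted p = 0.00125). CETN3, a centrin, rose by 0.22 ± 0.083 (edgeR adjusted p = 0.0392). CEP97 was at 0.22 ± 0.116 and did not pass. Of the matrix genes CDK5RAP2, which binds and activates the ring complex, fell to 89.0, 89.6 and 87.3 CPM with shFgfr1op, against 95.2, 95.6 and 101 CPM with scramble. The change was -0.14 ± 0.040 (edgeR adjusted p = 0.00638), without overlap, and it was not called without scramble library 3.

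Among linker and appendage genes CEP250 and NINL fell and NIN rose. CEP250, the linker anchor, was at 179, 182 and 182 CPM with shFgfr1op, against 192, 199 and 216 CPM with scramble. This was -0.16 ± 0.036 (edgeR adjusted p = 0.000498), without overlap. NIN, the ninein of subdistal appendages, was at 47.4, 45.8 and 43.6 CPM, against 36.4, 41.8 and 41.0 CPM with scramble, or 0.20 ± 0.056 (edgeR adjusted p = 0.00481). NINL was at 16.5, 15.5 and 16.6 CPM, against 18.1, 18.7 and 19.7 CPM with scramble, or -0.22 ± 0.075 (edgeR adjusted p = 0.0214). Neither gene overlapped between the groups; NIN lost its call without scramble library 1, and NINL without shFgfr1op library 2 or scramble library 2 or 3.

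In augmin 2 of 8 subunits rose, and in the ring complex TUBG1 alone of 7. HAUS5 was at 44.9, 46.5 and 45.1 CPM with shFgfr1op, against 42.5, 41.4 and 37.0 CPM with scramble (0.18 ± 0.055, edgeR adjusted p = 0.0102), and lost its call without scramble library 3. HAUS8, the subunit that binds microtubules, was at 12.6, 13.7 and 11.4 CPM, against 10.5, 10.2 and 10.1 CPM with scramble (0.29 ± 0.093, edgeR adjusted p = 0.0118), and lost it without shFgfr1op library 2. TUBG1 was at 96.0, 107 and 99.9 CPM, against 92.4, 92.9 and 95.7 CPM with scramble (0.11 ± 0.041, edgeR adjusted p = 0.038). The groups of these 3 genes did not overlap, by the narrowest gap for TUBG1, which kept its call in 6 of 12 alternatives and lost it without shFgfr1op library 2 or scramble library 1 or 2.

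**Figure D3:**
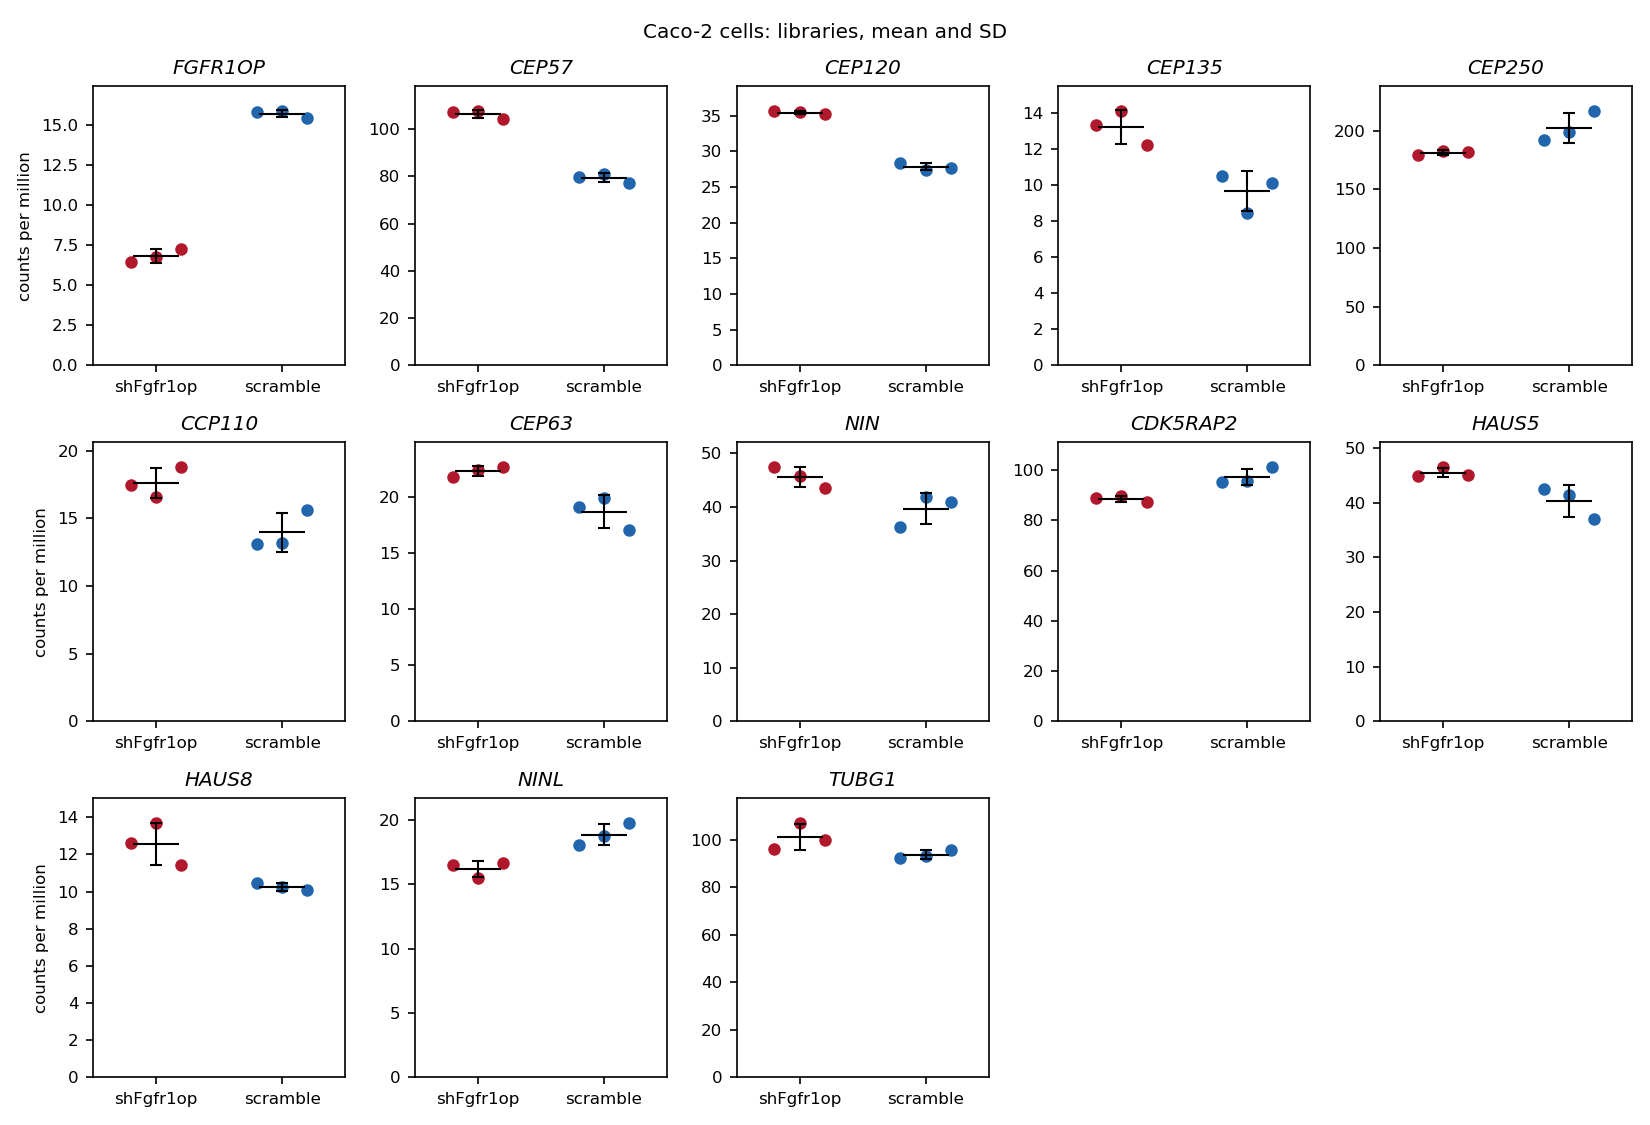
CPM (y axis, linear from 0) of FGFR1OP and the 12 members of smallest p in Caco-2, for shFgfr1op (left) and scramble (right). Points are libraries and the black mark is the mean with its SD (n = 3 each); FGFR1OP has the largest log2 fold change of those shown, at -1.20, and the 12 members lie within 0.45 of level on that scale, without overlap.

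Without overlap 11 members were higher and 4 lower, against 42.4% of all genes (20.8% higher and 21.5% lower). They were the 13 called members and, not called, TUBGCP5 of the ring complex (higher) and HAUS6 (lower). Of the 49 further centrosome genes 10 rose and 1 fell in Caco-2, or 22.4% against 31.9% of all genes called, led by PLK2 at 0.60 ± 0.106, the deubiquitinase gene USP33 at 0.20 and the satellite scaffold PCM1 at -0.15. Of 24 proliferation genes 8 rose and 1 fell (37.5%), and of 10 enterocyte genes tested 8 fell and 1 rose, with enterocyte sums of 1167 to 1340 CPM with shFgfr1op and 2183 to 2222 CPM with scramble. The part of either list in the members' changes was not tested.

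**Figure D4:**
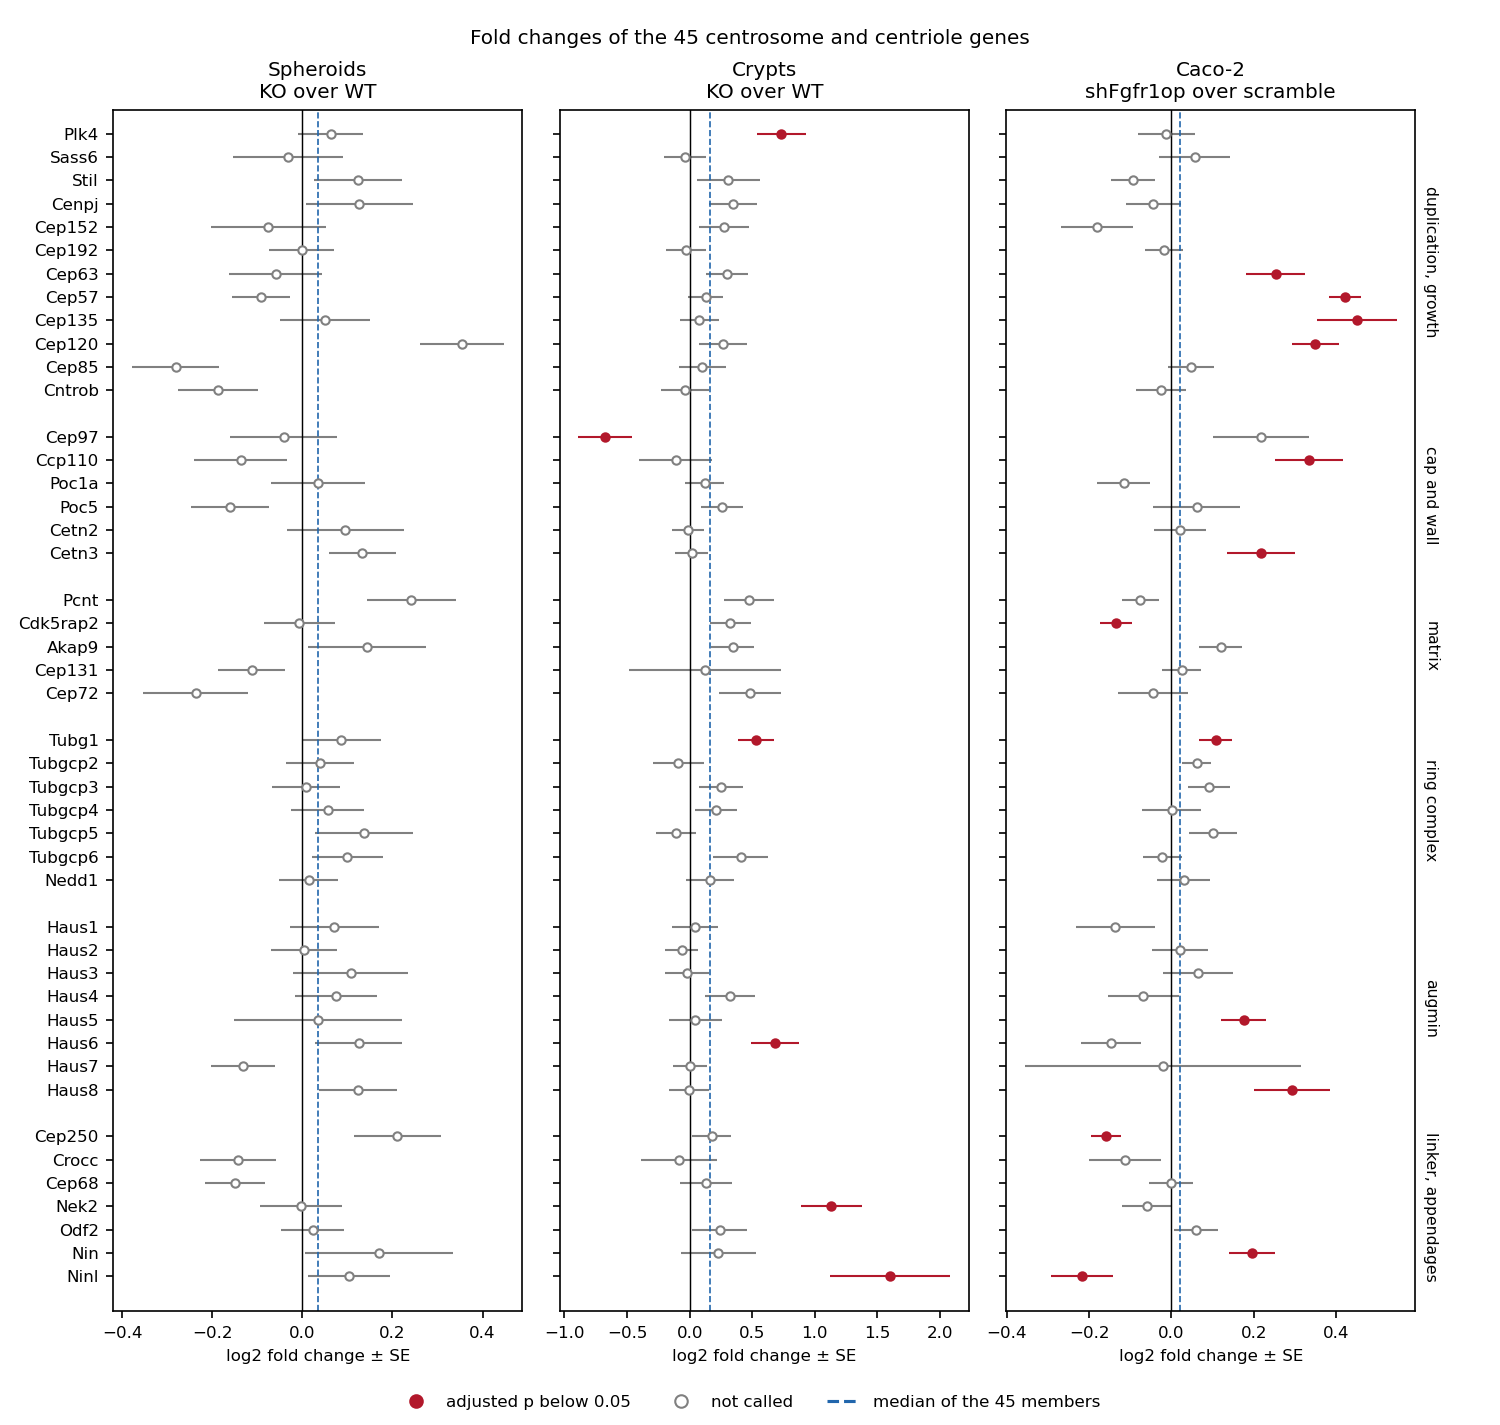
Log2 fold change (x axis, with its SE) of each of the 45 genes (rows, by role) in spheroids and crypts (KO over WT) and in Caco-2 (shFgfr1op over scramble); the x ranges differ between panels. Filled red points passed the test (0, 6 and 13 genes), open points did not, and the dashed line is the median of the 45 at 0.04, 0.16 and 0.02.

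The calls of the 3 comparisons were set side by side, with none in spheroids. Tubg1 and Ninl were called in both crypts and Caco-2. They are 33.3% of the crypt calls, beside 31.9% of all genes called in Caco-2. Of the Caco-2 calls they are 15.4%, beside 24.5% of all genes called in crypts. Tubg1 rose in both, at 0.53 in crypts and 0.11 in Caco-2, while Ninl rose by 1.60 in crypts and NINL fell by 0.22 in Caco-2. Nek2 was at 1.13 in crypts, -0.002 in spheroids and -0.06 in Caco-2, and Plk4 at 0.73, 0.06 and -0.01. Cep120 was positive throughout, at 0.35 in spheroids, 0.27 in crypts and 0.35 in Caco-2, and passed in Caco-2 alone. In all, 11 members had positive and 3 negative estimates in all 3 comparisons. The same count was not made over all genes, so these numbers have no background beside them. No test compared the human with the mouse samples.

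Levels of the members were set against each other per kilobase of exon, as CPM per kb, with exon lengths from GENCODE M21 on mm10. The length is that of all annotated exons of a gene merged, so the order depends on the annotation as well. The CPM of this comparison and the CPM per kb come from 1 normalization of both mouse tables together, so they differ from the CPM given above for the same libraries. In WT spheroids the 5 highest were Tubg1 at 23.5 ± 0.729, Haus7 at 17.1 ± 0.812, Nek2 at 15.1 ± 0.543, Haus4 at 11.2 ± 0.537 and Cetn2 at 9.20 ± 0.847 CPM per kb (SD, n = 4). The range over libraries of each of the first 4 lay above that of the next. The 5 lowest were Cep135 at 0.971, Tubgcp5 at 0.959, Cep97 at 0.525, Haus5 at 0.487 and Nin at 0.301 CPM per kb. In WT crypts the 5 highest were Haus7 at 42.5 ± 4.60, Cetn3 at 27.5 ± 4.47, Cetn2 at 24.0 ± 3.14, Tubg1 at 22.2 ± 2.79 and Poc1a at 16.6 ± 3.06 CPM per kb (SD, n = 6). The range of Haus7 lay above that of Cetn3, and the range of each of the other 4 overlapped that of the next. The 5 lowest were Ccp110 at 0.494, Ninl at 0.351, Nin at 0.117, Cep131 at 0.051 and Crocc at 0.048 CPM per kb. Neighbours in the order differed without overlap for 11 of 44 pairs in WT spheroids and for 1 of 44 in WT crypts. Lengths for the human genes were not used here, so no order is given for Caco-2.

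WT spheroids and WT crypts differed in 35 of the 45 members, 19 higher and 16 lower in spheroids, beside 81.7% of the 18485 genes tested (37.8% higher and 43.9% lower). The median of the members was 0.07, against -0.22 for all genes. Without overlap 18 members were higher and 13 lower, against 74.3% of all genes (35.7% higher and 38.7% lower). All 7 linker and appendage estimates were positive and 6 rose, while 6 of the 8 augmin subunits fell and 2 rose. Culture, preparation and count table differ together between these groups and cannot be told apart.

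Crocc, rootletin of the linker, had 14.8 to 17.3 CPM in WT spheroids (median 15.7), against 0.236 to 0.524 CPM in WT crypts (median 0.397). Cep131, a satellite gene, had 14.4 to 16.1 CPM in WT spheroids, against 0.0842 to 0.328 CPM in WT crypts. Both were close to undetected in crypts, and their log2 fold changes were 5.31 ± 0.215 and 6.24 ± 0.484 (edgeR adjusted p = 3.22e-14 and 2.52e-10). Nek2 averaged 68.4 ± 2.45 CPM in WT spheroids and 6.25 ± 1.29 CPM in WT crypts, and Plk4 averaged 27.4 ± 1.86 CPM in WT spheroids and 6.31 ± 1.37 CPM in WT crypts (SD, n = 4 and 6). Their log2 fold changes were 3.45 ± 0.224 and 2.12 ± 0.169 (edgeR adjusted p = 1.5e-11 and 3.27e-10). Ninl at 3.40, Ccp110 at 2.35 and Haus4 at 1.92 rose too, without overlap between the groups.

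Cetn3, a centrin, averaged 27.3 ± 0.856 CPM in WT spheroids and 85.5 ± 13.9 CPM in WT crypts. Its log2 fold change was -1.65 ± 0.128 (edgeR adjusted p = 2.3e-10), and the other centrin, Cetn2, fell by 1.38. The augmin subunits Haus1, Haus3, Haus8, Haus5, Haus7 and Haus2 fell by 1.95 to 1.22 on the log2 scale, while Haus4 and Haus6 rose by 1.92 and 0.99, so the mRNAs of 1 complex moved in both directions. The 10 members that did not pass included Stil, Cep120, Tubg1 and Tubgcp3, at -0.01, 0.07, 0.08 and 0.04.

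**Figure D5:**
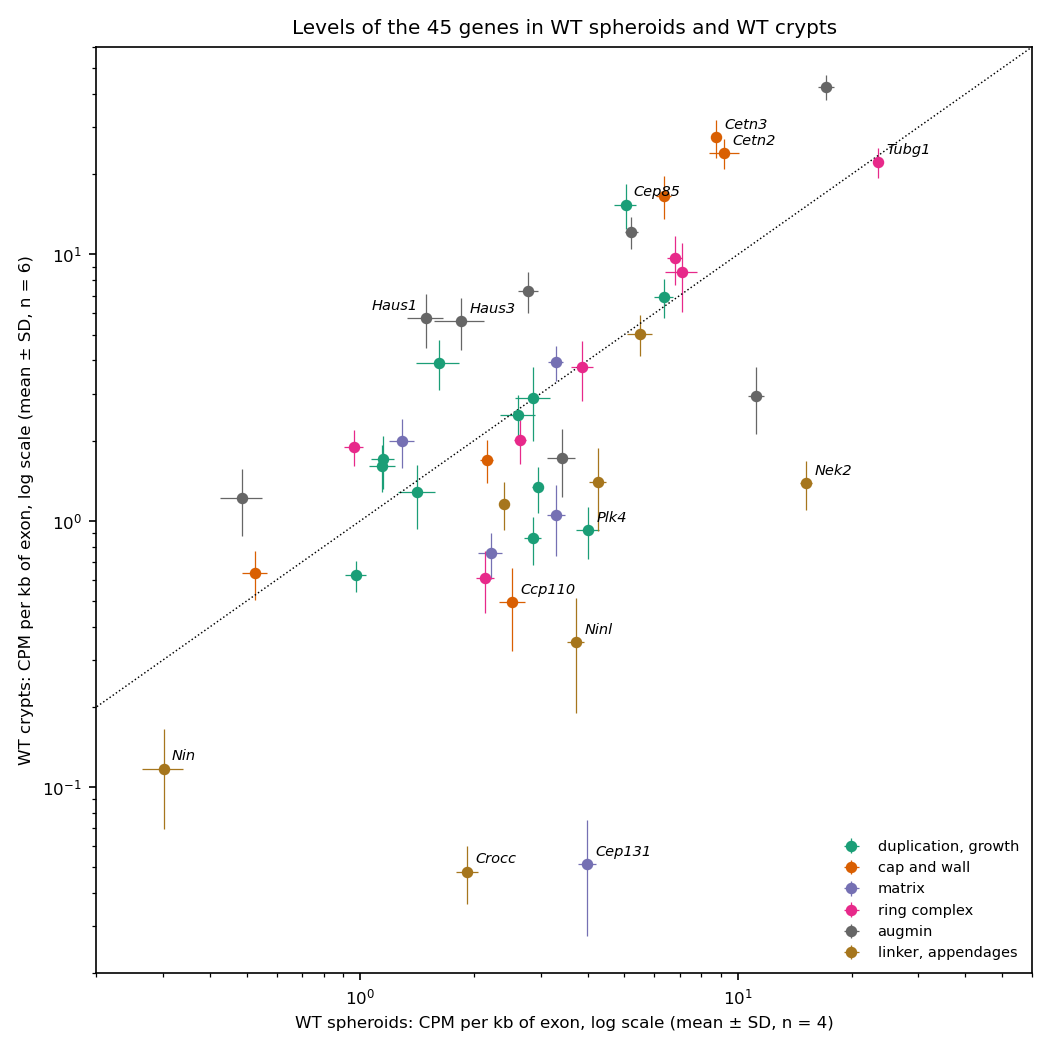
Levels of the 45 genes per kilobase of exon in WT spheroids (x axis, mean and SD, n = 4) and WT crypts (y axis, mean and SD, n = 6), on log axes, coloured by role; the dotted line marks equal levels. Crocc and Cep131 lie far below the line, at 1.92 and 3.98 CPM per kb in spheroids and 0.048 and 0.051 in crypts, and Haus1, Haus3 and the centrins lie above it.

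The members that rose in WT spheroids had a median exon length of 7188 bases and a median GC content of 49.4%, and those that fell had 4482.5 bases and 42.5%. Length is that of the merged exons, and GC content that of the longest annotated transcript. Across the 45 members Spearman's rho between the log2 fold change and exon length was 0.36, and with GC content 0.45. Across 18478 of the tested genes the values were 0.26 and 0.25. These are descriptions across genes that share their libraries, and the part of length and GC in the result was not tested. Of 24 proliferation genes edgeR called 6 higher and 10 lower in WT spheroids, or 66.7%, against 81.7% of all genes. Their log2 fold changes ran from -1.65 to 3.25. They summed to 2223 to 2374 CPM in WT spheroids, against 1681 to 2978 CPM in WT crypts. The part of this list in the values of Nek2 and Plk4 was not tested. Immune markers summed to 13.3 to 31.8 CPM in WT spheroids and 345 to 599 CPM in WT crypts, and enterocyte markers to 97.7 to 426 CPM, against 16604 to 41860 CPM.

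Exons of 23 of the 45 members overlap those of another gene in the GENCODE annotation, mostly on the opposite strand. The overlap exceeds 20% of the exon length for 4 of them, Sass6, Poc5, Tubgcp4 and Haus5. For Haus5, with 56.5% shared with a same-strand transcript, and for the other 3, whose partners lie on the opposite strand, the counts are uncertain, since nothing states whether the counting used strand. Of the genes called in crypts, Nek2 shares 6.60% of its exon length with an antisense transcript, and Ninl shares 2.45% with Nanp on the same strand.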

How the data were processed

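The authors deposited 1 table of whole-number read counts per gene for each sample type, with raw counts and no normalization. The tools named, per the submitters' processing notes, are STAR and DESeq2, with build mm10. That build is also given for Caco-2, although its table holds human Ensembl genes. The sources used here do not say whether counting used strand. Columns were matched to groups by genotype, and Caco-2 columns by the ending of the hairpin number.

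Repeated entries with identical counts were dropped (276 in each mouse table, 116 in Caco-2). Genes passing filterByExpr were fitted with edgeR 4.0.16 (R 4.3.3, TMM, robust quasi-likelihood test), adjusted by Benjamini-Hochberg over all genes tested and called below 0.05. Errors of log2 fold changes are standard errors, and intervals are at 95%. The WT spheroid and WT crypt contrast and the difference of KO effects came from 1 fit of both mouse tables. In this fit the CPM of a sample differ from those of its own table. Counts limit precision by counting error and by 3 to 6 libraries a group.

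Alternatives were RLE size factors, other filters, DESeq2 1.42.0, limma 3.58.1 voom with quality weights, a replicate block, leaving out each library and, added after the data were seen, dividing or blocking crypt libraries by the numbers in the column headers. Members, roles, marker lists and motifs were chosen with earlier results of these data known. Every member is accounted for by role. Full values are given for called members, at most the 12 of smallest p, and for the 4 of smallest p where fewer were called. Of the further centrosome genes, at most 3 a comparison are named. Promoters are RefSeq's, and positions and lengths come from GENCODE M21. No human genome coordinates were used here.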

Additional observations from a re-analysis of the deposited data

Results flagged for a closer look

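Of 48 sets of 4 or 6 libraries checked for a library far from the others, 3 stood out, and chance gives about 1 in 20. With the crypt table normalized alone, Plk4 in crypt KO library 1 was at 13.4 CPM, against 9.09 CPM in the nearest KO library. The summed mesenchymal and endothelial markers were at 39.7 CPM in crypt KO library 5, against 15.1 CPM in the nearest KO library. The same sum was at 15.1 CPM in crypt WT library 4, against 9.18 CPM in the nearest WT library. The KO effect on Ninl in crypts differed between the 2 runs of the second header number in edgeR's test of the difference (2.29 on the log2 scale, second run minus first, adjusted p = 0.0378).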

How the results depend on the processing

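No called value changed sign among Fgfr1op, the 6 members called in crypts and the 12 of smallest p in Caco-2; CETN3 and the members called between WT spheroids and WT crypts were followed by their count alone. In spheroids DESeq2 called 1 member, Cep120, and 581 genes (37 in edgeR, 55 in voom, 154 with no filter, and 3 to 160 with 1 library left out), and called Fgfr1op at -0.42 (DESeq2 adjusted p = 0.00533). In crypts, leaving out 1 library gave 2 to 8 member calls, voom gave 9 among 7179 genes, and Fgfr1op lay between -0.74 and -0.52. The following divisions were chosen after seeing the data. The first run of the second header number gave 0 member calls and Fgfr1op at -0.82 (edgeR adjusted p = 0.573). Running numbers 1 to 3, which mix the runs, gave 0 member calls and Fgfr1op at -0.72 (edgeR adjusted p = 0.328), and running numbers 4 to 6 gave 9. Between these last sets the estimates of Akap9, Ccp110 and Sass6, called at 0.71, -0.89 and -0.45 in 4 to 6, had the other sign at -0.10, 0.58 and 0.35 in 1 to 3, and Plk4 and Tubg1 were called in neither. In Caco-2, leaving out 1 library gave 9 to 12 member calls and a member median log2 fold change of 0.012 to 0.046. For the difference of KO effects, voom called 4 members among 4723 genes, and leaving out 1 library gave 0 to 1 member calls among 105 to 1419 genes (273 with no filter, 528 in the full fit). For the other settings these member counts were within 1.5 times of those reported; the causes were not tested.

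Replicate numbers did not pair the samples: same-numbered deviations correlated at -0.03 to 0.10 in spheroids and 0.003 to 0.04 in Caco-2. With the replicate block 0 members and 71 genes were called in spheroids, and 14 members and 5904 genes in Caco-2. In crypts the running number of the column headers is not in the labels, and same-numbered deviations correlated at -0.07 to 0.11. A replicate block by this number, added after seeing the data, gave 3 member calls (Nek2, Plk4 and Haus6) among 2732 genes (16.6%). Depth limits Cep131 and Crocc in crypts, at most 0.526 CPM and 0.489 CPM in any crypt library when the crypt table is normalized alone.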
